A study of Mus musculus with 12 samples.

Results

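The members were the 7 rows of a mouse liver RNA sequencing table that carry the symbols Alb, Ttr, Trf, Ahsg, Fetub, Gc and Rbp4, chosen by gene symbol as plasma carrier proteins. All 7 were found among the 13554 genes of the table, and all 7 passed the filter on low values (3 or more libraries with a value of 10 or above) among the 12570 genes tested. The table holds 12 libraries of liver from wild-type male C57Bl/6J mice, all taken on postoperative day 3, once a part of the liver had been cut away (partial hepatectomy). PH70 had 70% of the liver removed and PH80 had 80% removed. PH80_HC was the 80% resection in an arm that the labels name HC, and PH80_G+H was the 80% resection with G-CSF, a growth factor of granulocytes, and HNF4a, a transcription factor of hepatocytes. Each group had 3 libraries, and all 4 groups had undergone resection, so no unoperated liver stands beside them. Not given in the sources used here were what HC stands for, the age of the mice, and how, when and in what form or amount G-CSF and HNF4a were given. Whether each library is its own animal is not stated either, so a p-value reflects only the spread between libraries, which may be technical.

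Hepatocytes make these proteins with a signal peptide, pass them through the endoplasmic reticulum and Golgi, and secrete them into blood, where they carry ligands that would otherwise be insoluble, toxic or lost in urine. Albumin also sets the oncotic pressure of plasma, and its fall is a classic sign of failing liver function. Several of these genes are known as negative acute phase genes, whose transcripts decline in inflammation, and liver-enriched factors such as HNF4, C/EBP and the PAR bZIP family (DBP, TEF and HLF) are known to drive them.

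Each value is a read count scaled by the size factor of its library, called normalised reads here, and k stands for 1000 of them. Each library's column total is the sum over its listed genes. The table holds 0 genes with the mitochondrial prefix mt- and lacks the globin genes Hba-a1, Hba-a2, Hbb-bs and Hbb-bt. Ranks and shares of the total therefore hold among the listed genes only. From 9.72 to 44.5 M reads stood behind a library, with 1055420 to 5228498 reads of Alb and 5198 to 35450 reads of Fetub, the least abundant member, so counting error is small beside the spread between libraries. Column totals were 21.1 to 24.4 M in 10 libraries, and 29.2 and 30.5 M in PH80_HC replicates 1 and 3. Values on the normalised scale and shares of the total can therefore part for those 2 libraries, and both are given. Replicates also differed in how log2 values ran with transcript length: the slope per doubling of length lay between -0.26 (PH80_HC replicate 3) and 0.25 (PH80_G+H replicate 2). Of the 9 other hepatocyte markers beside Alb, all were in the table and none was at 0. Their sums were 583600 to 623100 normalised reads in PH70, 484900 to 706000 in PH80, 536700 to 826200 in PH80_HC and 597900 to 657100 in PH80_G+H. In PH80 against PH70, 6 of 9 had a lower mean (median log2 difference -0.11). Against PH80, 6 of 9 had a higher mean in PH80_HC (median 0.29) and 6 of 9 in PH80_G+H (median 0.15). Their part in the member differences was not tested. In bulk tissue, fewer cells of a type and less RNA per cell cannot be told apart.

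Alb had the highest value of any listed gene in all 12 libraries, and Trf was second in all 12. By the mean over libraries, Ahsg ranked 4th, Ttr 10th, Gc 12th, Rbp4 35th and Fetub 188th. Alb took 6.74% to 11.7% of a library's total, and all 7 transcripts together took 12.4% to 18.8%. Per kilobase of transcript, which is the scale for comparing levels between genes, Alb averaged 1087 k normalised reads (SD 236, n = 12). On the same scale Trf averaged 258 k (SD 87.5), Ahsg 248 k (SD 38.6), Ttr 168 k (SD 64.1), Gc 92.6 k (SD 19.6), Rbp4 81.2 k (SD 16.8) and Fetub 9.07 k (SD 4.52). The means of Trf and Ahsg, and those of Gc and Rbp4, lie closer together than the SD over libraries of either gene. Alb was also first per kilobase in every library but PH80_HC replicate 3, where it was second.

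**Figure D1:**
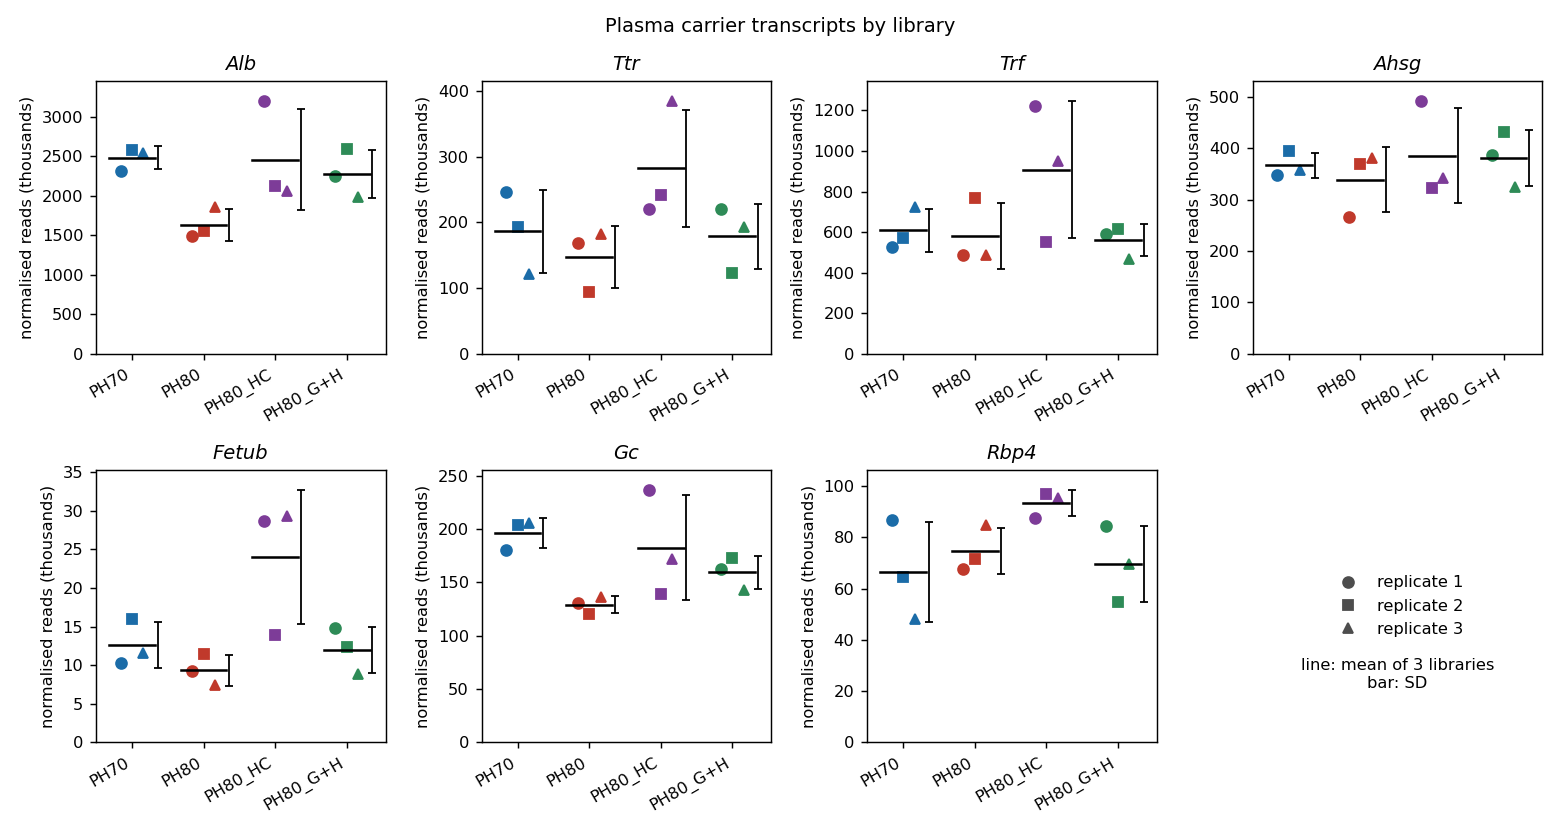
Normalised reads (k, linear axis from 0) of the 7 transcripts in each of 12 libraries, by group; points are libraries, with the replicate shown by the symbol, the line is the mean of 3 and the bar its SD. The 3 PH80 libraries are the lowest of all 12 for Alb and for Gc, and PH80_HC replicates 1 and 3 lie far above all other libraries for Fetub.

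Alb and Gc lie on the same chromosome and belong to the same gene family, and Ahsg and Fetub are neighbours. In GRCm38 with the GENCODE M21 annotation, Alb is at chr5:90460897-90476602 on the plus strand with 15 exons, and Gc is at chr5:89417522-89457898 on the minus strand, 1003 kb away. Afp, the fetal albumin of the same family, starts 14.1 kb beyond Alb, and Afm, the vitamin E carrier afamin, 42.3 kb beyond it. Ahsg is at chr16:22891277-22899449 and Fetub at chr16:22918334-22939778, 18.9 kb apart on the plus strand. Trf is at chr9:103204001-103230444 and Rbp4 at chr19:38116629-38125281, both on the minus strand. Both Trf and Ahsg overlap another annotated gene model on the minus strand, a protein-coding model at Trf and an antisense RNA at Ahsg. The libraries keep strand, but whether the counting used strand was not given in the sources used here. Reads of Ahsg and of its antisense partner therefore cannot be told apart with certainty. The model at Trf lies on the same strand as Trf, so strand alone cannot part their reads. Neither model is among the genes of the table.

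The 250 bases before the RefSeq start are shown for Alb and Gc, the 2 members whose values went together most closely; they were picked after the values were seen. RefSeq windows of GRCm38.p6 were found for 5 of the 7 members. Short motifs were searched on both strands, and capitals mark their matches: TTGCNNAA (C/EBP), TTANNTAA (PAR bZIP), CCAAT (NF-Y) and TATAAA (known as the TATA box). The Alb window is chr5:90460620-90460869 (plus strand) and the Gc window chr5:89457899-89458148 (minus strand), each written 5′ to 3′ along its gene.
Alb: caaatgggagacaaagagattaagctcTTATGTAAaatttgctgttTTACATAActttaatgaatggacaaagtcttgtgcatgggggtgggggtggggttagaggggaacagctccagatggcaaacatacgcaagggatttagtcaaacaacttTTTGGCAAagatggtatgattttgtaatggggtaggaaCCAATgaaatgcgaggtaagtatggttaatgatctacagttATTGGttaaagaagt
Gc: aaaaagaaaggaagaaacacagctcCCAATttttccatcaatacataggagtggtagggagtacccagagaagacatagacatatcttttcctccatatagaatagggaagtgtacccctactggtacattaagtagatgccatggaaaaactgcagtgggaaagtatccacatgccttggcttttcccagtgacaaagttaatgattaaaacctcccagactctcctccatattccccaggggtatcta
The Alb window holds 1 TTGCNNAA match 94 bases before the start. It also holds TTANNTAA matches 223 and 204 bases before the start, and CCAAT matches 56 and 15 bases before it. The Gc window holds a CCAAT match 225 bases before its start, and none of the other 3 motifs. Of 32817 windows of this length, 9.57% hold TTGCNNAA, 5.43% TTANNTAA, 33.8% CCAAT and 12.4% TATAAA. A match only describes the letters and is not a measured binding site.

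The larger resection was compared with the smaller one first. In PH80 the lower transcripts were Alb, the main plasma protein, and Gc, the vitamin D binding protein, each at about the same fold below PH70, while Rbp4, Trf and Ahsg differed little. None of these differences passed the test across all genes. In limma fitted to all 12 libraries, with Benjamini-Hochberg adjustment over all tested genes, 0 of 7 members were called, beside 2.7% of all genes. An unadjusted p under 0.05 was found for 2 members, and for 2560 of the 12570 genes tested. Of the count models on recovered reads, edgeR called 0 members and DESeq2 called 2, Alb and Gc, beside 7.71% of all genes for DESeq2.

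Alb stood at 2316, 2582 and 2544 k normalised reads in the 3 PH70 libraries and at 1484, 1549 and 1858 k in the 3 PH80 libraries. Every PH80 library lay below every PH70 library, by value and by share. The share of the total was 9.94%, 10.6% and 11.7% in PH70 and 7.05%, 7.24% and 8.70% in PH80. The mean was 1.53-fold lower in PH80, a log2 difference of -0.61 (SE 0.20, 95% interval -1.06 to -0.17; limma adjusted p = 0.13). DESeq2 on recovered reads gave an adjusted p of 0.0475 and edgeR 0.336.

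Gc, which carries vitamin D metabolites and scavenges actin, stood at 180, 204 and 205 k in PH70 and at 131, 120 and 137 k in PH80. Its groups did not overlap either, by value or by share. The log2 difference was -0.60 (SE 0.20, 95% interval -1.04 to -0.17), a 1.52-fold lower mean, with an adjusted p of 0.128 in limma and 0.0415 in DESeq2. Gc per 100 reads of Alb was 7.79 to 8.07 in PH70 and 7.35 to 8.82 in PH80, so the ratio between these 2 transcripts overlapped between the groups. Alb and Gc were the only 2 of 7 members whose PH80 and PH70 libraries did not overlap, a share near that over all tested genes (27%, with 14.2% lower and 12.8% higher in PH80).

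**Figure D2:**
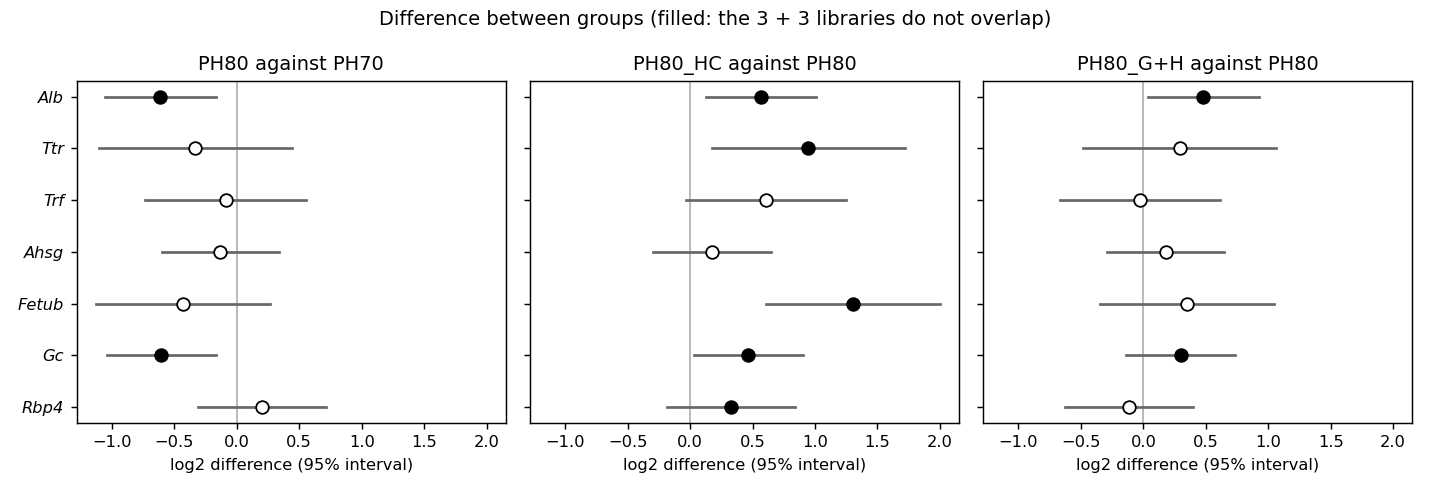
Log2 difference of each transcript on the log2(value + 1) scale in 3 comparisons; the line is the 95% interval of limma and a filled point means that the 3 and 3 libraries did not overlap by value. In PH80 against PH70 the intervals of Alb and Gc lie below 0, and in PH80_HC against PH80 those of Alb, Ttr, Fetub and Gc lie above 0, before adjustment over all genes.

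Transthyretin, encoded by Ttr, carries thyroxine and holds retinol-binding protein in the blood, and Rbp4 encodes that retinol carrier. Ttr stood at 246, 193 and 121 k in PH70 and at 168, 94.1 and 182 k in PH80. Rbp4 stood at 86.8, 64.5 and 48.1 k in PH70 and at 67.6, 71.5 and 85.0 k in PH80. Both overlapped between the groups, Ttr with a log2 difference of -0.33 (95% interval -1.10 to 0.44) and Rbp4 with 0.20 (95% interval -0.31 to 0.72). With the trend on transcript length and GC removed the Rbp4 difference was -0.10, of the opposite sign.

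Trf encodes transferrin, the iron carrier, and stood at 527, 571 and 725 k in PH70 and at 486, 768 and 486 k in PH80. The groups overlapped, with 1 PH80 library above every PH70 library and the other 2 below, and the log2 difference was -0.09 (95% interval -0.73 to 0.55). Fetuin-A, encoded by Ahsg, binds calcium phosphate and keeps it from crystallising. Ahsg stood at 349, 395 and 358 k in PH70 and at 266, 370 and 381 k in PH80, with a log2 difference of -0.13 (95% interval -0.60 to 0.34). Fetub, the related fetuin-B and an inhibitor of astacin proteases, stood at 10.3, 15.96 and 11.6 k in PH70 and at 9.23, 11.4 and 7.41 k in PH80. For Ahsg and Fetub the groups overlapped as well, and Fetub had a log2 difference of -0.43 (95% interval -1.13 to 0.27).

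Relative to Alb within the same library, Ahsg was higher in PH80 than in any other library. Per 100 normalised reads of Alb there were 17.9, 23.9 and 20.5 of Ahsg in PH80, against 14.1 to 15.3 in PH70, 15.2 to 16.6 in PH80_HC and 16.3 to 17.2 in PH80_G+H. Rbp4 per 100 Alb was 4.56 to 4.61 in the 3 PH80 libraries, against 1.89 to 3.75 in PH70, 2.74 to 4.65 in PH80_HC and 2.11 to 3.75 in PH80_G+H. Such ratios do not depend on the size factor, and they were not tested.

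Under the equal-total scaling the median difference of all genes moved to 0.13 in PH80 against PH70, to -0.31 in PH80_HC against PH80 and to -0.10 in PH80_G+H against PH80, from near 0 on the deposited scale. On that scale the Alb difference between PH80 and PH70 was -0.49 and that of Gc was -0.48, so both stayed lower in PH80, while Trf changed sign to 0.03.

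**Figure D3:**
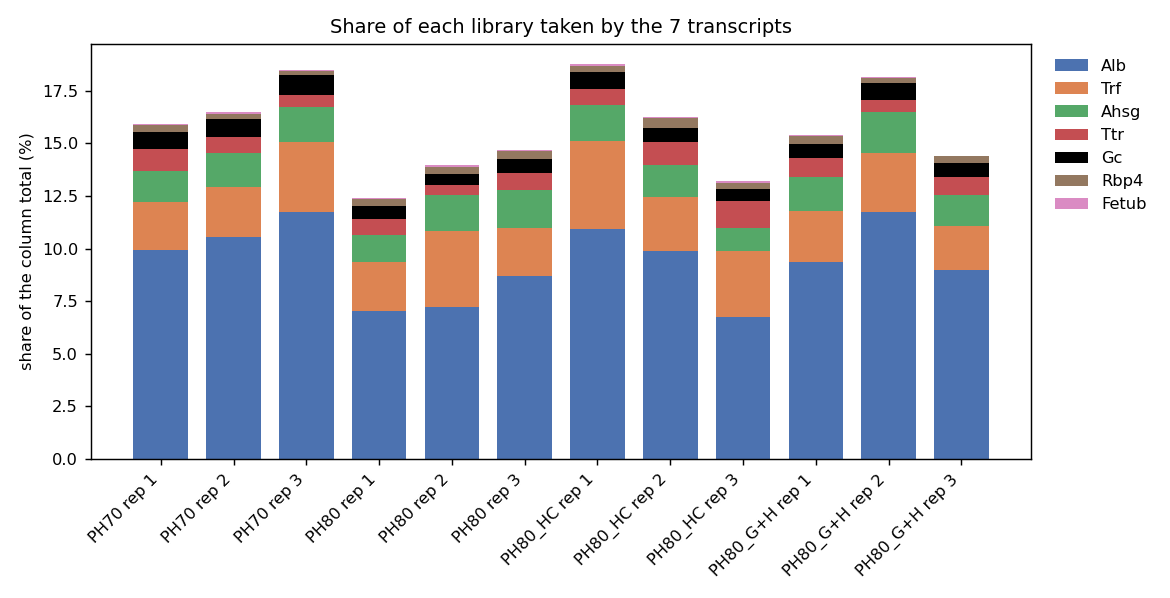
Share of the column total (%, stacked from 0) taken by the 7 transcripts in each library. The 3 PH80 bars reach 12.4% to 14.7%, below the 15.9% to 18.5% of PH70, and the PH80_HC bars reach from 13.2% to 18.8%.

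The 7 transcripts together held 15.9%, 16.5% and 18.5% of the total in PH70 and 12.4%, 13.95% and 14.7% in PH80. These groups did not overlap. Without Alb in the total, the other 6 transcripts held 6.61% to 7.68% in PH70 and 5.77% to 7.23% in PH80, which overlap. In PH80_HC the sum was 18.8%, 16.3% and 13.2%, and in PH80_G+H it was 15.4%, 18.2% and 14.4%; both ranges overlap that of PH80.

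The arm named HC was then set against PH80, the same resection without it. All 7 members had a higher mean in PH80_HC, from 1.13-fold for Ahsg to 2.47-fold for Fetub, and Fetub stood out also as a share of the total. No member passed limma's test after Benjamini-Hochberg adjustment (0 of 7 called, beside 0.597% of all genes). For 4 members, and for 1774 of the 12570 genes tested, the unadjusted p was under 0.05. Counting models on recovered reads called 0 members in edgeR and 1, Fetub, in DESeq2, where 4% of all genes were called. With every library at the same total, 1 member had an unadjusted p under 0.05 in limma, beside 2673 of the 12570 genes tested. The differences were smaller on that scale: 0.97 for Fetub, 0.62 for Ttr, 0.28 for Trf, 0.24 for Alb and 0.14 for Gc, beside the shifted median of -0.31 given above.

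Fetub stood at 28.7, 13.9 and 29.3 k in PH80_HC, against 9.23, 11.4 and 7.41 k in PH80. Every PH80_HC library lay above every PH80 library, and replicate 2 was closest to them. As a share of the total, Fetub held 0.065% to 0.098% in PH80_HC and 0.035% to 0.053% in PH80, which do not overlap. The log2 difference was 1.30 (SE 0.32, 95% interval 0.605 to 1.998; limma adjusted p = 0.10). DESeq2 gave an adjusted p of 0.00113 and edgeR 0.0742. Without PH80_HC replicate 2 the limma difference was 1.65 with an adjusted p of 0.0396. Leaving out any other single library gave an adjusted p up to 0.229.

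Fetub per 100 reads of its neighbour Ahsg was 5.84, 4.31 and 8.58 in PH80_HC and at most 4.04 in every other library. Ahsg itself stood at 492, 323 and 341 k in PH80_HC, overlapping PH80, with a log2 difference of 0.18 (95% interval -0.29 to 0.65). Its sign turned to -0.15 with every library at the same total and to -0.04 with the total of genes outside the 50 most abundant. Further along the same chromosome, 51.6 and 158 kb from Ahsg, lie Hrg, the histidine-rich glycoprotein, and Kng1, the kininogen precursor of bradykinin. Hrg had a log2 difference of 1.17 in PH80_HC against PH80 (limma adjusted p = 0.183) and Kng1 one of 1.07 (adjusted p = 0.107), neither past the threshold.

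Ttr stood at 221, 242 and 385 k in PH80_HC, each above the highest PH80 library. Its log2 difference was 0.95 (SE 0.35, 95% interval 0.17 to 1.72; limma adjusted p = 0.252), the second largest of the 7. Rbp4 stood at 87.5, 97.2 and 95.5 k, above the PH80 maximum of 85.0 k by little, with a log2 difference of 0.33 (95% interval -0.18 to 0.84). At equal totals the Rbp4 difference was -0.0021, so it was lost on that scale.

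Alb stood at 3195, 2119 and 2057 k in PH80_HC, above the PH80 range, with a log2 difference of 0.57 (SE 0.20, 95% interval 0.12 to 1.012; limma adjusted p = 0.232). As a share of the total it held 10.95%, 9.88% and 6.74%, and the last of these, in replicate 3, lay below all 3 PH80 libraries. Gc stood at 237, 139 and 172 k, above the PH80 range by little, with a log2 difference of 0.47 (95% interval 0.03 to 0.90; limma adjusted p = 0.322). Trf stood at 1221, 552 and 953 k and overlapped PH80, with a log2 difference of 0.61 (95% interval -0.04 to 1.25).

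By value, 5 of the 7 members (Alb, Ttr, Fetub, Gc and Rbp4) had all PH80_HC libraries above all PH80 libraries, beside 8.26% of all genes tested. The members share the size factor of each library and are not independent of each other. By share of the total only Fetub had all PH80_HC libraries above all PH80 libraries. For all genes, the lack of overlap was counted by value only. No percentage of all genes therefore stands beside a result by share, here or in the other comparisons. The 2 PH80_HC libraries with the largest totals, replicates 1 and 3, held the highest values of Fetub and Trf, and the part of the total in the other differences was not tested. Within PH80_HC the spread was wide: replicate 1 was the highest of all 12 libraries for Alb, Trf, Ahsg and Gc, and replicate 3 was the highest for Ttr and Fetub.

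Mean marker levels of some other cell types differed beside these. All 8 stellate and fibroblast markers had lower means in PH80_HC than in PH80 (median log2 difference -1.22), with summed levels of 3933 to 5921 against 7015 to 22580 normalised reads, none at 0. All 8 macrophage markers had higher means (median 0.59), with sums of 15730 to 25800 against 8491 to 20450, again with none at 0. The 3 erythroid markers in the table had higher means (median 2.41; sums of 1234 to 4011 against 946 to 1269), and so had 6 of 7 lymphocyte markers (median 0.82; sums of 103 to 326 against 69.8 to 174). Endothelial markers were split, with 4 lower and 4 higher (median 0.02), and so were neutrophil markers, with 3 and 3 (median -0.02). Of 6 cholangiocyte markers tested 4 were higher (median 0.095), and so were both pancreas markers tested (median 1.03). No marker of these lists was called in limma, and their part in the higher carrier transcripts was not tested.

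In the arm given G-CSF and HNF4a, Alb and Gc were the members that lay above PH80, and the other 5 overlapped it. In limma 0 of 7 members were called, beside 0% of all genes, and 1 member had an unadjusted p under 0.05; edgeR and DESeq2 also called 0 members. Over all genes 1305 had an unadjusted p under 0.05, edgeR called 11, and DESeq2 called 203, or 1.62%. Alb stood at 2252, 2587 and 1985 k, above all 3 PH80 libraries, with shares of 9.34%, 11.7% and 8.96%. Those shares too lay above all PH80 shares. The log2 difference was 0.48 (SE 0.20, 95% interval 0.04 to 0.92; limma adjusted p = 0.435), a 1.39-fold higher mean.

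Gc stood at 162, 173 and 143 k in PH80_G+H, again above all 3 PH80 libraries by value and by share. Its log2 difference was 0.30 (SE 0.20, 95% interval -0.14 to 0.74; limma adjusted p = 0.642). Beside these 2 of 7 members, 8.82% of all genes tested had every PH80_G+H library above every PH80 library. The intervals of the other 5 members all included 0: log2 differences were 0.35 for Fetub (14.8, 12.4 and 8.84 k), 0.29 for Ttr (220, 124 and 193 k), 0.18 for Ahsg (387, 432 and 324 k), -0.03 for Trf (593, 617 and 469 k) and -0.12 for Rbp4 (84.5, 54.6 and 69.8 k). All 8 macrophage markers had lower means than in PH80 (median log2 difference -0.33; sums of 8313 to 12290 against 8491 to 20450). Of the endothelial markers 7 of 8 had higher means (median 0.21; sums of 6437 to 7116 against 4907 to 7257), and of the cholangiocyte markers 5 of 6 tested had lower ones (median -0.55; sums of 1277 to 2342 against 2070 to 6590). The 3 erythroid markers had higher means (median 0.66). Lower means were found for 5 of 8 stellate and fibroblast markers (median -0.42) and 5 of 7 lymphocyte markers (median -0.20). Neutrophil markers were split, 3 lower and 3 higher (median 0.035). None of these markers was called in limma, and their part was not tested. All 3 comparisons with PH80 share its libraries, so a low or high PH80 library enters each of them.

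PH80_HC and PH80_G+H were each also compared with PH70, the smaller resection. Alb had a log2 difference of -0.04 in PH80_HC (95% interval -0.49 to 0.40) and of -0.13 in PH80_G+H (95% interval -0.58 to 0.31). Both intervals include 0. In PH80_HC against PH70 limma called 0 of 7 members beside 0.0636% of all genes. An unadjusted p under 0.05 was found for 2 members, beside 1832 of the 12570 genes tested. These 2 were Fetub with a log2 difference of 0.87 (adjusted p = 0.291) and Rbp4 with 0.53 (adjusted p = 0.337). Rbp4 was the only member with all PH80_HC libraries above all PH70 libraries (7.96% of all genes), and by share it overlapped. In PH80_G+H against PH70 limma called 0 of 7 beside 0.00796% of all genes, with no member under an unadjusted p of 0.05 (748 of all genes). There Gc, with a log2 difference of -0.30 (95% interval -0.74 to 0.13), was the only member with every library lower (7.57% of all genes). Neither edgeR nor DESeq2 called a member in these 2 comparisons, where DESeq2 called 2.01% and 0.525% of all genes.

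Between PH80_HC and PH80_G+H the largest difference among the members was that of Fetub, whose mean was 1.94-fold higher in PH80_HC, a log2 difference of 0.95 (SE 0.32, 95% interval 0.26 to 1.65; limma adjusted p = 0.251, DESeq2 adjusted p = 0.0478 beside 2.48% of all genes called, edgeR adjusted p = 0.195). By share of the total the Fetub libraries of the arms did not overlap, while by value PH80_HC replicate 2 (13.9 k) lay below PH80_G+H replicate 1 (14.8 k). Ttr (log2 difference 0.66) and Rbp4 (0.44) had every PH80_HC library above every PH80_G+H library by value, beside 8.71% of all genes, but not by share. Limma called 0 of 7 members beside 0.199% of all genes, and 1 member, Fetub, had an unadjusted p under 0.05, as had 1659 of the 12570 genes tested. Over all 4 groups at once, limma's F test called 0 of 7 beside 0.843% of all genes (adjusted p = 0.157 for Fetub and 0.258 for Alb), edgeR called 0, and the likelihood ratio test of DESeq2 called 1, Fetub, beside 9.76% of all genes.

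Levels of the members were set against each other across the 12 libraries, and the plot of Alb with Gc and of Ttr with Rbp4 shows 2 of the 21 pairs. Alb and Gc had a Pearson r of 0.92 and a Spearman rho of 0.91 on log2 values, and r was 0.90 without the 2 libraries farthest from the Alb median. Ttr and Rbp4, whose proteins circulate as a complex, had r of 0.75 and rho of 0.79, and r of 0.92 without the 2 libraries farthest from the Ttr median. Trf and Fetub had r of 0.85 and rho of 0.76, and r of 0.48 without the 2 libraries farthest from the Trf median. Alb and Ahsg had r of 0.75 and rho of 0.69, and r of 0.34 without the 2 libraries farthest from the Alb median. With p-values from 100000 permutations of the libraries, adjusted by Benjamini-Hochberg over the 21 pairs, adjusted p for r was 0.00084 for Alb with Gc, 0.0117 for Trf with Fetub, and 0.0318 for Ttr with Rbp4 and for Alb with Ahsg. For rho it was 0.00294, 0.0383, 0.0359 and 0.0905 in the same order. After subtraction of the group means, r was highest for Alb with Ahsg (0.89) and Alb with Gc (0.87), followed by Trf with Fetub (0.78), Ttr with Rbp4 (0.75), Ahsg with Gc (0.72) and Trf with Gc (0.68). Members of a library share its size factor, and the permutations do not keep the groups together. These p-values therefore do not part a link between 2 members from differences between groups or in scaling. The correlations were planned as a description without p-values, and the permutations were added later.

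**Figure D4:**
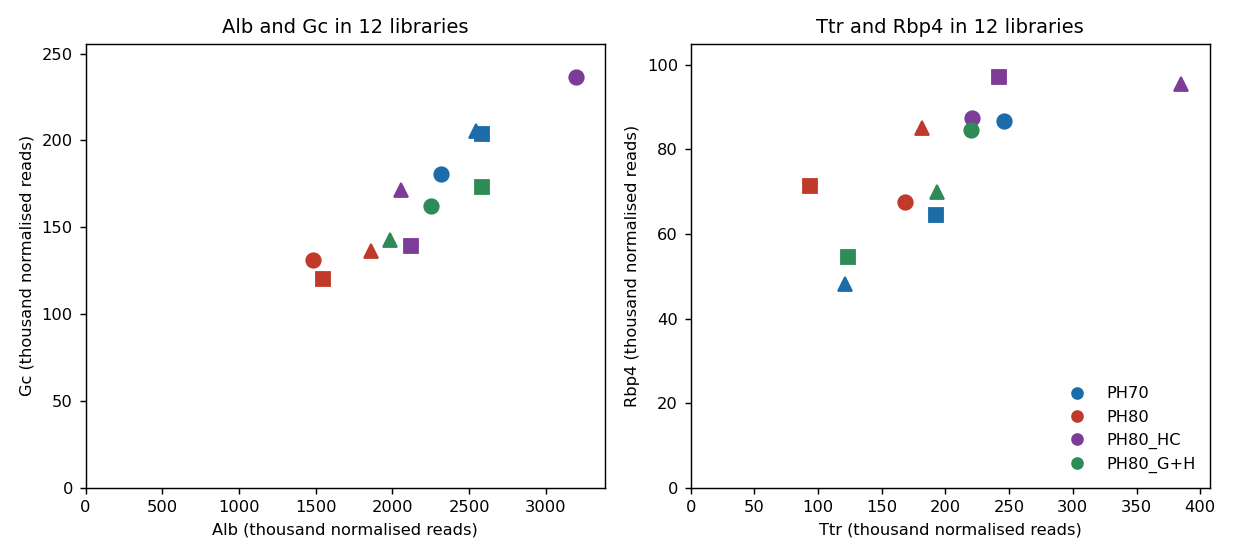
Normalised reads (k, linear axes from 0) of Gc against Alb and of Rbp4 against Ttr in the 12 libraries, with colours for the groups and circles, squares and triangles for replicates 1, 2 and 3. Gc per 100 Alb stays between 6.58 and 8.82 in all 12 libraries, while Rbp4 per 100 Ttr ranges from 24.8 to 76.0.

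Gc per 100 Alb lay between 6.58 and 8.82 in all 12 libraries, although Alb itself varied 2.15-fold. Rbp4 per 100 Ttr lay between 24.8 (PH80_HC replicate 3) and 76.0 (PH80 replicate 2), and in the other 10 libraries between 33.4 and 46.7. Rbp4 and Ttr are the shortest of the 7 transcripts at 937 and 1186 bases, and the libraries differ in their length slopes; the part of length in this pairing was not tested. Among 10571 genes with a mean of at least 50 normalised reads, the pattern most like Alb was that of Col18a1 (r of 0.97), followed by Aifm1 and Cfi. The nearest to Ttr were Gsta3, Ggact and Hebp1, to Trf Ext2, Lars and Tmem98, and to Ahsg Ext1, Sec63 and H6pd. Fetub was closest to Agt, the angiotensinogen gene (r of 0.98), then Ifnar2 and Aar2. Gc was closest to Abhd17c, F2 (prothrombin) and Rab7, and Rbp4 to Nr1i3, Alg5 and Mthfs. All these r are over 12 libraries and lie between 0.897 and 0.977.

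Transcription factors known to act at albumin and other liver promoters were followed as a list of 24 genes, all tested. Shares over all genes, for this list and those below, follow in the order PH80 against PH70, PH80_HC against PH80 and PH80_G+H against PH80. Limma called 2.7%, 0.597% and 0%, and 2560, 1774 and 1305 of the 12570 genes tested had an unadjusted p under 0.05. DESeq2 called 7.71%, 4% and 1.62%, and edgeR called 368, 116 and 11 genes. In PH80 against PH70, 5 of 24 fell in limma and none rose, with a median log2 difference of -0.23 against 0.01 over all tested genes, and 20 of 24 had a lower mean. The PAR bZIP factors Dbp, Hlf and Tef, circadian regulators that bind the D element of the albumin promoter, and Cebpa, which encodes C/EBP alpha, were among them. The position of the D element in the printed Alb window was not looked up. An element that departs from TTANNTAA is unmarked there.

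Dbp stood at 2113, 1340 and 671 normalised reads in PH70 and at 97.0, 50.1 and 129 in PH80, with no overlap. Its mean was 14.3-fold lower on the log2 scale (log2 difference -3.84, SE 0.44; limma adjusted p = 0.00469), and it stayed called in all 21 alternative analyses. Cebpa stood at 6628, 6798 and 6772 in PH70 and at 3160, 1692 and 3393 in PH80, a log2 difference of -1.36 (adjusted p = 0.0177). For Tef the log2 difference was -1.81 (adjusted p = 0.0177) and for Hlf -1.26 (adjusted p = 0.0145), again with no overlap between the groups. The limma calls of Cebpa, Hlf and Tef were each lost without PH70 replicate 1 and without PH70 replicate 2, those of Hlf and Tef also without PH80 replicate 1, and that of Tef without PH80 replicate 2 (adjusted p up to 0.0875). The differences themselves moved little: without PH70 replicates 1 and 2 in turn they were -1.37 and -1.35 for Cebpa, -1.21 and -1.16 for Hlf, and -1.58 and -1.77 for Tef. Calls over all genes in those fits were 86 and 16, against 339 with every library. Hlf was lost at equal totals too. The fifth, Nfix, with a log2 difference of -0.84 (adjusted p = 0.0362), lost its call in 10 of 21 alternatives, without any 1 library of PH70 or PH80 among them (adjusted p up to 0.142). Dbp, Tef and Hlf follow the time of day, and the hour at which each liver was taken was not given in the sources used here; its part was not tested.

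**Figure D5:**
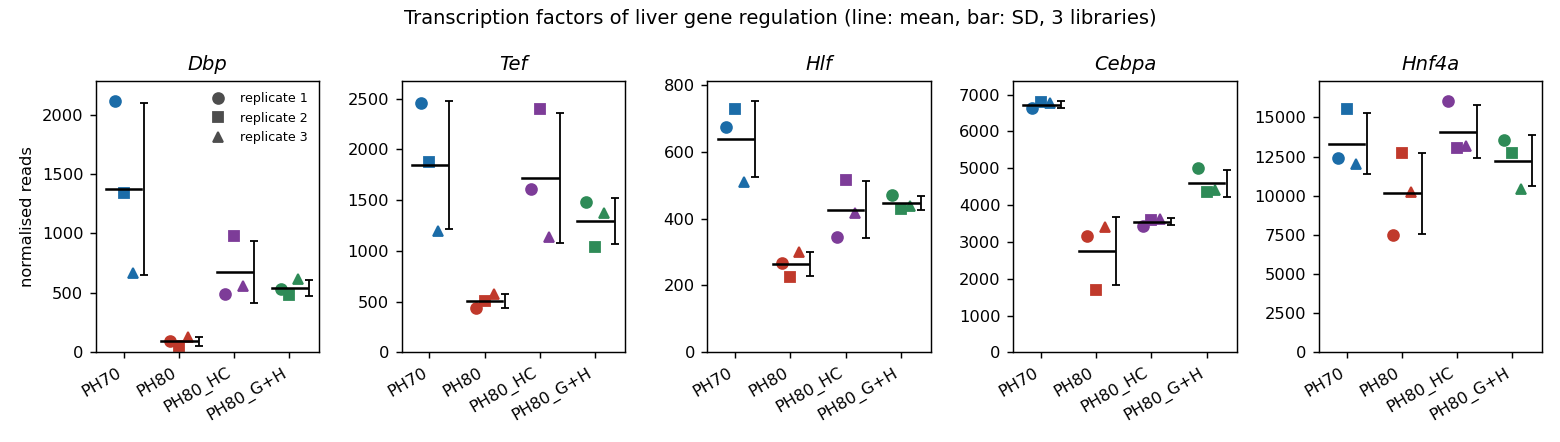
Normalised reads (linear axes from 0) of 5 transcription factors in the 12 libraries, with the replicate shown by the symbol, the mean of 3 as a line and the SD as a bar. Dbp, Tef, Hlf and Cebpa have their 3 lowest libraries in PH80, whereas the PH80 libraries of Hnf4a reach into the range of PH80_G+H.

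Hnf4a, a nuclear receptor that maintains hepatocyte gene expression, had a log2 difference of -0.42 in PH80 against PH70 (limma adjusted p = 0.301) and did not pass the test. In PH80_HC against PH80, 2 of 24 factors rose in limma, Dbp to 488, 977 and 562 normalised reads (log2 difference 2.90, adjusted p = 0.0214) and Tef to 1612, 2402 and 1134 (1.70, adjusted p = 0.0448), with a list median of 0.22 against 0.01. Dbp lost this call in 3 of 21 alternatives, among them without PH80 replicate 1 and at equal totals, and Tef lost it in 14 of 21 alternatives, 10 of which each leave out a single library (all but PH70 replicate 3 and PH80_HC replicate 3). In PH80_G+H against PH80 limma called 0 of 24 (5 with an unadjusted p under 0.05, list median 0.28 against 0), edgeR called 1 and DESeq2 3. Dbp stood there at 530, 479 and 615 (log2 difference 2.64, adjusted p = 0.0832), the difference of Cebpa was 0.80 (adjusted p = 0.293), and that of Hnf4a, the mouse gene of the factor given in this arm, 0.30 (adjusted p = 0.675).

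Other carrier and binding proteins of plasma formed a list of 30 genes, all tested. In PH80 against PH70, 1 fell in limma, Apoh, the phospholipid-binding apolipoprotein H (log2 difference -0.77, adjusted p = 0.0385), and 19 of 30 had a lower mean, with a median of -0.23 against 0.01 over all genes. In PH80_HC against PH80, 1 rose, again Apoh (0.95, adjusted p = 0.0428), 27 of 30 had a higher mean, and the median was 0.66 against 0.01. The Apoh calls were lost in 13 and in 16 of 21 alternatives. The first was lost without any 1 library outside PH80_HC, and the second without any 1 library but PH70 replicate 3 and PH80_HC replicate 2 (adjusted p up to 0.171 and 0.117). PH80 libraries enter both comparisons. In PH80_G+H against PH80, limma, edgeR and DESeq2 each called 0 of 30, 3 had an unadjusted p under 0.05 in limma, and the median was 0.11 against 0.

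Afp stood at 115, 101 and 118 normalised reads in PH70 and at 442, 467 and 442 in PH80, a log2 difference of 2.01 that missed limma's threshold (adjusted p = 0.0617). It was called in 5 of 21 alternatives, among them DESeq2 (adjusted p = 2.7e-04) and edgeR (adjusted p = 0.0277), and also without PH80_HC replicate 3 (limma adjusted p = 0.00118). In PH80_HC it stood at 380, 377 and 68.8, and in PH80_G+H at 177, 260 and 239. The 3 PH80 libraries thus held the 3 highest values of Afp and the 3 lowest of Alb. Afm, next along, had log2 differences of -0.33, 0.47 and 0.30 in the 3 comparisons, PH80 with PH70 first, none past the threshold (adjusted p of 0.433, 0.39 and 0.688).

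Receptors and recycling proteins of the carriers were measured for 15 of 16 listed genes. Limma called 0 of 15 in all 3 comparisons (5, 8 and 2 with an unadjusted p under 0.05), with medians of -0.14, 0.24 and 0.24; edgeR called 0 in each, and DESeq2 called 1, 5 and 0. Fcgrt, the neonatal Fc receptor that recycles albumin, stood at 3205, 3316 and 3271 in PH70 and at 2411, 2007 and 2296 in PH80, with no overlap (log2 difference -0.55, limma adjusted p = 0.21). In PH80_HC it stood at 3587, 2856 and 5582, above PH80 (log2 difference 0.79, adjusted p = 0.143).

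Positive acute phase genes, which rise in inflammation, were all measured, 25 of 25. Limma called 0 in each of the 3 comparisons (4, 5 and 0 with an unadjusted p under 0.05), edgeR 0, 1 and 0, and DESeq2 1, 2 and 0. Their medians were 0.21 in PH80 against PH70, 0.66 in PH80_HC against PH80 and 0.07 in PH80_G+H against PH80. Higher means were found for 15, 21 and 15 of 25 in that order. In PH80_HC against PH70 all 25 had a higher mean (median 0.91), as had 25 of the 30 other carriers (median 0.41). Hpx, Hp, Cp, Orm1, Orm2 and Orm3 belong to both of these lists, so the lists are not separate results. The neutrophil markers, 6 of 8 tested, all had higher means in PH80 than in PH70 (median 1.57; sums of 317 to 5875 against 151 to 502, with 1 listed marker at 0 in PH70). In the same comparison 7 of 8 macrophage markers (median 0.32) and 6 of 8 stellate and fibroblast markers (median 0.27) were higher. Lower means were found for 7 of 8 endothelial (median -0.21), 4 of 6 cholangiocyte (median -0.22) and 4 of 7 lymphocyte markers (median -0.11). None of these markers was called in limma, and their part in the lower Alb and Gc was not tested.

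Genes of the secretory pathway of the hepatocyte were measured for 28 of 28, and limma called 0 in each comparison (8, 0 and 0 with an unadjusted p under 0.05), edgeR 0 in each and DESeq2 2, 0 and 0. Their medians were 0.14, -0.15 and 0.12. Of 16 listed partners in vitamin A, vitamin D and iron handling, 14 were tested, with limma calls of 0, 1 and 0 and medians of 0.11, 0.15 and -0.14. In PH80 against PH70 and PH80_G+H against PH80, 3 and 1 had an unadjusted p under 0.05, edgeR called 0 in each, and DESeq2 called 1 and 0. The 1 called was Cyp27a1, a mitochondrial sterol and vitamin D hydroxylase, at 4983, 3927 and 5517 normalised reads in PH80 and 10300, 10350 and 13830 in PH80_HC (log2 difference 1.26, adjusted p = 0.0483), a call lost in 14 of 21 alternatives, 10 of which leave out 1 library (all but PH70 replicate 3 and PH80_G+H replicate 2).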

How the data were processed

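Liver RNA of 12 samples was sequenced with a stranded, polyA-selecting kit from 100 ng of total RNA, per the labels' protocols. The submitters' processing notes name DESeq2 and the build GRCm38 (mm10), with no aligner, counter or annotation. The deposited table gives each gene in each library as a signal that the authors had normalised. In every library 100% of these values were whole reads within 0.01 after division by what 1 read is worth, with size factors equal to those recomputed by the DESeq2 method. Each column name matched 1 sample's description.

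Genes with 3 or more libraries at 10 or above were tested on log2(value + 1) with limma 3.58.1 (R 4.3.3) over all 12 libraries, two-sided, with Benjamini-Hochberg adjustment and a threshold of 0.05. No intensity trend was used, since few genes lie at the level of these transcripts. Fold changes are on that scale. The pipeline was tested on simulated data. Alternatives were an intensity trend, a pseudocount of 10, no filter, 2 other scalings, edgeR 4.0.16 and DESeq2 1.42.0 on recovered reads, a correction for length and GC, a replicate block, and each library left out. The members and lists were chosen with earlier results of these data known. Besides the members, the text names up to 4 called genes per list with the smallest adjusted p, fixed neighbours, factors and Fcgrt, and the 3 most alike patterns per member; Nfix was added after its value was seen, and 1 gene and 1 motif of the planned lists are not reported here. Markers of hepatocytes, endothelium, stellate cells and fibroblasts, cholangiocytes, macrophages, neutrophils, lymphocytes, erythroid cells and pancreas served as checks; limma called none of them in the 3 comparisons that involve PH80.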

Additional observations from a re-analysis of the deposited data

How the results depend on the processing

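The least abundant member, Fetub, had at least 5198 reads in each library. Of 882 alternative values of the 42 member differences, 831 kept their direction and side of the threshold, 5 newly passed it and 46 changed sign. The sign changes included Rbp4 in PH80_HC against PH80 (0.33 in the main fit) and Ttr in PH80_G+H against PH80 (0.29 in the main fit). The 39 alternative share values moved by less than the SD between replicates. Member calls moved in 5 of 147 alternatives: DESeq2 gave 2 in PH80 against PH70 and 1 each in PH80_HC against PH80, PH80_HC against PH80_G+H and over the 4 groups, and leaving out a library gave 0 to 1 in PH80_HC against PH80 (1 without PH80_HC replicate 2). With an intensity trend the limma adjusted p of Alb in PH80 against PH70 was 0.688 (0.13 without one), since the trend set its SD at 0.967 and not 0.248 on the log2 scale. The cause of the other changes was not tested. Calls among all tested genes moved far more: 339 in PH80 against PH70 (16 without PH70 replicate 2 to 950 in DESeq2), 75 in PH80_HC against PH80 (15 with the replicate block to 503 in DESeq2), 0 in PH80_G+H against PH80 (to 203), 8 in PH80_HC against PH70 (0 to 253), 1 in PH80_G+H against PH70 (0 to 66), 25 between PH80_HC and PH80_G+H (0 without PH80_HC replicate 3 to 306) and 106 over the 4 groups (9 to 1226).

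At equal totals the sign turned for Trf in PH80 against PH70 (0.031), for Ahsg (-0.15), Rbp4 (-0.0021) and Nfix (-0.076) in PH80_HC against PH80, for Ahsg in PH80_HC against PH70 (-0.16), and for Alb (-0.14) and Gc (-0.066) in PH80_HC against PH80_G+H. At equal totals outside the 50 most abundant genes it turned for Ahsg in PH80_HC against PH80 (-0.042) and PH70 (-0.11) and for Alb in PH80_HC against PH80_G+H (-0.067). With the length and GC trend removed it turned for Rbp4 in PH80 against PH70 (-0.10), PH80_G+H against PH80 (0.094) and PH80_G+H against PH70 (-0.0044), and for Ahsg in PH80_HC against PH70 (-0.17) and PH80_G+H against PH70 (-0.0076). In DESeq2 it turned for Ahsg between PH80_HC and PH80_G+H (0.016).

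Leaving out each library in turn also turned signs. In PH80 against PH70 the ranges were -0.31 to 0.045 for Trf, -0.22 to 0.033 for Ahsg and -0.0090 to 0.42 for Rbp4, and in PH80_HC against PH80 -0.011 to 0.29 for Ahsg. In PH80_G+H against PH80 they were -0.0076 to 0.54 for Ttr, -0.14 to 0.19 for Trf and -0.27 to 0.047 for Rbp4. In PH80_HC against PH70 they were -0.25 to 0.070 for Alb, -0.14 to 0.16 for Ahsg and -0.34 to 0.039 for Gc. In PH80_G+H against PH70 they were -0.32 to 0.20 for Ttr, -0.21 to 0.018 for Trf, -0.050 to 0.16 for Ahsg, -0.25 to 0.12 for Fetub and -0.13 to 0.30 for Rbp4. Between PH80_HC and PH80_G+H they were -0.12 to 0.20 for Alb, -0.19 to 0.11 for Ahsg and -0.038 to 0.34 for Gc.

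The counts of called list genes were added after the data were seen. Other carriers in PH80 against PH70 gave 1, but 2 with an intensity trend or edgeR, 3 with pseudocount 10, 4 with the length and GC trend removed, 5 with DESeq2, 0 at equal totals, and 0 to 3 without 1 library. Factors there gave 5, but 3 at equal totals and 1 to 5 without 1 library. In PH80_HC against PH80 carriers gave 1, but 8 with DESeq2, 0 with an intensity trend, no filter, either equal total or edgeR, and 0 to 3 without 1 library. Factors gave 2, but 1 without the filter or at equal totals outside the 50 genes, 0 at equal totals, and 0 to 2 without 1 library. Vitamin and iron partners gave 1, but 0 without the filter and at either equal total, and 0 to 1 without 1 library.

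The replicate block called 0 members in every comparison. It called 0 other carriers in PH80 against PH70, and in PH80_HC against PH80 0 other carriers, 0 factors and 0 vitamin and iron partners. Replicate numbers did not pair the samples: deviations of same-numbered libraries correlated at -0.37 to 0.37 over 18 pairs, 6 over 0.1, and 1 of 12 libraries correlated best with its own number.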
